A study of Mus musculus with 6 samples.

Results

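The genes described here are 35 genes of the endoplasmic reticulum (ER) folding machinery and of the unfolded protein response, taken by mouse symbol from 54532 genes listed in the cervical spinal cord of 6 C57BL/6 mice. All 35 were found and all 35 passed the filter on low values, which asked for 0.1 FPKM or more on average. FPKM is the number of fragments for each kilobase of a gene's exons, set to 1 library size for all mice. They comprise 15 chaperones and folding enzymes of the ER, 8 genes of ER-associated degradation, 2 translocon genes, 5 stress sensors and transcription factors, and 5 genes driven by the kinase PERK through the factor ATF4. The 3 mice with allergic contact dermatitis (ACD) carried skin inflammation from squaric acid dibutylester (SADBE), a contact allergen. SADBE at 1% in acetone, 20 µl a day, was painted on the shaved abdomen on 3 days, and after 5 days again on the shaved nape on 3 days. The 3 control mice received acetone alone on the nape, and the labels leave unclear whether their abdomens had been sensitised. Age, sex and the interval from the last challenge to dissection were not given in the sources used here.

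Proteins that enter the ER are folded by chaperones such as BiP, cross-linked by disulfide isomerases and, where folding fails, pulled back to the cytosol and degraded. When unfolded protein accumulates, 3 sensors in the ER membrane respond. ATF6 is cut to release a transcription factor, IRE1 (gene Ern1) splices the Xbp1 mRNA into an active form, and PERK (gene Eif2ak3) phosphorylates eIF2α, which slows translation and favours that of ATF4. ATF6 and spliced XBP1 drive chaperone and degradation genes. ATF4 drives amino acid and redox genes and the death-associated factor CHOP (gene Ddit3). In the nervous system these chaperones are made by neurons and glia alike, and bulk RNA does not say which cells hold a transcript.

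Of the 35 genes 10 rose in ACD and none fell at an adjusted p of 0.05 by limma, where 1.81% of 21369 genes tested rose and 2.53% fell (4.34% in either direction). Among protein-coding genes 1.85% rose, and 3.21% of those averaging 5 FPKM or more, a level most of the 35 reach. The estimate was above 0 in 31 of the 35 genes, against 48.6% of all genes, and 20 were higher at an unadjusted p under 0.05, against 10.5%. Of 15359 protein-coding genes tested, 8506 had an estimate above 0 and 1922 were higher at that unadjusted p. With voom on recovered reads 11 of the 35 rose (3.28% of all genes), after TPM scaling 7 (0.959%), and with the trend on length and GC content taken out 9 (1.5%). The 10 were 9 of the 15 chaperones and folding enzymes (Sdf2l1, Hspa5, Pdia6, Creld2, Manf, Hsp90b1, Pdia4, Pdia3 and Dnajb11) and the transcription factor Xbp1. None of the 8 degradation genes, the 2 translocon genes or the 5 PERK-ATF4 genes passed by limma. At an unadjusted p under 0.05, 1 of the degradation genes, 1 of the translocon genes and 3 of the PERK-ATF4 genes were higher, and with voom on recovered reads 0, 0 and 1 passed. The 3 ACD values lay above the 3 control values in 21 of the 35 genes, against 13.1% of all genes tested. Among protein-coding genes this held for 2494 of 15359. The ACD values lay below the control values in 1 of the 35, Ern1, against 15.5% of all genes tested.

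Short stretches upstream of 9 of these genes show the sequence letters through which this response is known to reach them. The ER stress response element (ERSE) is read by the factor NF-Y at CCAAT and by ATF6 or XBP1 at CCACG, and ERSE-II is a compact form of it. The C/EBP-ATF response element (CARE) is read by ATF4. Matches are in capitals, in either orientation, and positions are upstream of the RefSeq start site in GRCm38.p6.
Hspa5 (chr2:34772020-34772048, plus strand, ERSE): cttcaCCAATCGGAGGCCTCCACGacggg
Hsp90b1 (chr10:86705528-86705661, minus strand, 2 ERSE): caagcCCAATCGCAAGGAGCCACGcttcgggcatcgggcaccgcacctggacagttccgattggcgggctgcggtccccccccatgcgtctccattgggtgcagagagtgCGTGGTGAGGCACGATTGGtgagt
Pdia6 (chr12:17266486-17266514, plus strand, ERSE): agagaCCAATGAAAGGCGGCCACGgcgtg
Creld2 (chr15:88819515-88819543, plus strand, ERSE): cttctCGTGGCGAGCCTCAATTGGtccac
Calr (chr8:84847070-84847098, minus strand, ERSE): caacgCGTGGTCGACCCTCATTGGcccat
Canx (chr11:50325795-50325823, minus strand, ERSE): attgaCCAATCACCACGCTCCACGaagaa
Herpud1 (chr8:94386312-94386392, plus strand, CARE then ERSE-II): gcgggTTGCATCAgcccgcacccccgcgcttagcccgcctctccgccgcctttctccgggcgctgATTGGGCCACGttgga
Chac1 (chr2:119351044-119351061, plus strand, CARE): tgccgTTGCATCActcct
Asns (chr6:7693220-7693237, minus strand, CARE): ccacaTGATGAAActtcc

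In the 4 genes shown first the level rose in ACD, and in the other five it did not pass the test. The Hspa5 and Asns stretches lie inside the GENCODE M21 gene models, whose starts are farther upstream than those of RefSeq, and the other 7 lie outside the gene's own model. Promoter sequence was matched for 31 of the 35 genes, and Manf, Hyou1, Derl1 and Atf6 were not matched. The ERSE, CCAAT and CCACG with 9 bases between them on either strand, stood within 250 bases upstream of 9 of these 31 genes (29.0%). Counted by promoter, it stood in 9 of their 32 promoters and in 0.113% of all 32851 promoters searched. The genes were listed as parts of this response, so a high share follows from the choice of genes and is no separate finding. Of the 9, Hspa5, Hsp90b1, Pdia6 and Creld2 rose, while Calr, Canx, Dnajc3, Derl3 and Syvn1 did not pass. Of the 22 matched genes without this ERSE 5 rose (Sdf2l1, Pdia3, Pdia4, Dnajb11 and Xbp1).

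Among all genes tested, 20 carried the ERSE upstream. The 4 of them that rose are the 4 named above. ERSE-II, ATTGG and CCACG with 1 base between them, was found upstream of Herpud1 alone among the 31, against 0.0304% of all promoters. CARE (TGATGNAA) stood upstream of Asns, Chac1 and Herpud1, or 9.68% of the matched genes, against 3.45% of all promoters, and none of these 3 passed. The XBP1-type element TGACGTGG was found upstream of none of the 31 and of 0.563% of all promoters. The cyclic AMP element TGACGTCA was found upstream of Ppp1r15a alone, and of 1.55% of all promoters. A match is a string of letters in this window and not a measured binding site.

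The library sizes by which the FPKM were divided, recovered from the steps between low values, were 16916599 to 20245569. These are scaling denominators, and the reads recovered with them summed to 1.65e+07 to 2.15e+07 per library. Behind each of the 35 genes lay 13 to 7476 reads on average. Markers of spinal neurons, astrocytes and oligodendrocytes were present in every library. Of the Hox genes, the cervical ones Hoxa5 and Hoxc6 had means of 27.0 and 12.2 FPKM in controls while the lumbosacral Hoxc10 and Hoxd10 were at 0 to 3 reads in each library. Several summed markers moved with the groups. Nuclear retained RNAs summed to 365 to 413 FPKM in controls and 115 to 157 in ACD, with 6 of 8 tested genes lower. Erythroid markers summed to 100 to 390 and 482 to 773, Schwann cell markers to 150 to 235 and 320 to 455, astrocyte markers to 795 to 920 and 1024 to 1080, and microglia markers to 125 to 152 and 165 to 180. Markers of oligodendrocyte precursors summed to 23.6 to 26.6 and 28.5 to 35.4, with 0 of 5 genes past the test by limma and 2 higher by voom. Neutrophil markers overlapped, at 24.9 to 111 and 95.7 to 124. No gene of the erythroid, Schwann or neutrophil lists passed by limma, nor was any of these genes listed at 0 in all libraries, while 1 of 8 astrocyte and 2 of 8 microglia genes rose. At an unadjusted p under 0.05, 3 of 6 erythroid, 4 of 6 Schwann and 3 of 8 neutrophil genes were higher and 0 lower. Their median log2 fold changes were 0.93, 0.62 and 1.23, and that of the 15 chaperones and folding enzymes was 0.54. In 5 of the 6 Schwann genes every ACD value exceeded every control value. With voom 0 erythroid, 1 Schwann and 1 neutrophil gene rose. When only genes averaging 1 FPKM or more were tested, 2 of 4 Schwann genes rose, where 525 of all 13650 did. The part of these cell types in the rise of the chaperones was not tested. Plasma and B cell markers, from cells rich in ER, summed to 21.7 to 35.3 in controls and 32.3 to 39.6 in ACD, mostly from Ighm. None of 9 tested genes of that list, which includes Derl3, passed by limma or voom, with 0 higher and 1 lower at an unadjusted p under 0.05 and 6 of 9 estimates above 0. Its 2 genes averaging 1 FPKM or more, Ighm and Igkc, had log2 fold changes of 0.32 (adjusted p = 0.351) and 0.90 (adjusted p = 0.301), with overlapping groups. Of 23 cytosolic heat shock genes, another arm of protein quality control, 4 rose and none fell, where 1.81% of all genes rose. After TPM scaling 1 rose (0.959% of all genes), with voom 6 (3.28%), and with the length and GC trend taken out 5 (1.5%). At an unadjusted p under 0.05, 14 of the 23 were higher and 1 lower, where 10.5% of all genes were higher. Fewer cells of a type and less RNA per cell cannot be told apart in these bulk samples, nor can more cells and more RNA. Differences in handling between the groups were not tested.

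Of 3 large chaperones of the ER lumen, Hspa5 and Hsp90b1 rose and Hyou1 did not pass. Hspa5, which encodes BiP, the HSP70 of the ER, measured 56.5, 50.6 and 56.4 FPKM in controls 1 to 3 and 102, 87.2 and 92.6 in ACD 1 to 3. The lowest ACD value stood well above the highest control value. The mean went from 54.5 ± 3.39 to 93.9 ± 7.46 FPKM (SD, n = 3), a ratio of 1.72, with a log2 fold change of 0.78 (95% interval 0.59 to 0.98, adjusted p = 0.00903). Hsp90b1, which encodes GRP94, the HSP90 of the ER, measured 57.6, 58.5 and 57.3 in controls and 97.9, 87.9 and 88.6 in ACD, a ratio of 1.58 (log2 fold change 0.66, SE 0.07, adjusted p = 0.00854). Its 3 control values were among the closest together of the 35 genes. Hyou1, the nucleotide exchange factor GRP170 that serves BiP, measured 10.3, 8.60 and 12.4 in controls and 13.6, 12.5 and 12.8 in ACD (0.33, 95% interval 0.02 to 0.63, adjusted p = 0.196) and did not pass. Control 3 lay just under the lowest ACD value. Hspa5 and Hsp90b1 stayed past the threshold with any 1 library left out, with adjusted p of at most 0.0422 and 0.0390, and under all 17 alternatives tried. Of these, median-of-ratios scaling could not change a result, since its factor was 1 in each library.

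BiP works with J-domain partners and cofactors, of which Sdf2l1 and Dnajb11 rose while Dnajb9 and Dnajc3 did not pass. Sdf2l1, a small partner of the J-protein ERdj3 that keeps unfolded chains soluble, had the largest ratio of the 35 genes. It measured 9.23, 10.2 and 11.4 FPKM in controls and 27.3, 19.6 and 19.4 in ACD, from 10.3 ± 1.08 to 22.1 ± 4.47, a ratio of 2.15 (log2 fold change 1.08, SE 0.15, adjusted p = 0.0155). ACD 1 stood apart above the other two ACD values, and without control 1 the adjusted p was 0.0547. Dnajb11, which encodes ERdj3 itself, measured 14.7, 12.9 and 13.5 in controls and 20.5, 19.2 and 18.5 in ACD (0.50, SE 0.07, adjusted p = 0.0207). Its groups did not overlap. Dnajb9 (ERdj4), which is known to hold IRE1 in check through BiP, measured 20.8, 22.5 and 19.6 in controls and 24.0, 24.7 and 21.5 in ACD, with overlapping groups (0.15, 95% interval -0.04 to 0.35, adjusted p = 0.309). Dnajc3 (p58IPK), a co-chaperone that also restrains PERK, went from 20.2 ± 0.852 to 23.9 ± 1.42 (0.24, adjusted p = 0.101) and did not pass. Dnajb11 lost its call when any 1 ACD library was left out, with adjusted p of 0.0656 to 0.0763, and after TPM scaling (0.40, adjusted p = 0.0505).

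Manf and Creld2 encode small proteins of the ER that are secreted under stress, Manf being known also as a neurotrophic factor. Manf measured 11.1, 9.36 and 9.18 FPKM in controls and 18.2, 14.0 and 15.6 in ACD, a ratio of 1.61 (log2 fold change 0.68, SE 0.12, adjusted p = 0.0289). Creld2 measured 9.17, 6.38 and 8.61 in controls and 13.3, 13.02 and 12.4 in ACD, a ratio of 1.60 (0.69, SE 0.13, adjusted p = 0.0386). In both genes every ACD value exceeded every control value. Both calls were close to the threshold. Manf lost its call without ACD 1, ACD 3 or any 1 of the controls, with adjusted p of 0.0519 to 0.101, and after TPM scaling (adjusted p = 0.0522). Creld2 lost its call without any 1 ACD library, control 1 or control 3 (0.0590 to 0.123), after TPM scaling (0.0802), with the trend on length and GC content taken out (0.0555) and with no filter on low values (0.0625). Exons of other genes on the opposite strand cover 8.9% of Manf and 10.3% of Hsp90b1, so without known strand some of their reads may belong to those genes.

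Disulfide isomerases form and rearrange disulfide bonds, and of the 4 among the genes described here 3 rose. Further genes of this kind were examined in the list of other folding enzymes. Of these, Pdia5, Erp44, Txndc5, Txndc11, Txndc12, Tmx1, Tmx2, Tmx3, Tmx4 and Dnajc10 did not pass. Pdia3 (ERp57), the partner of calnexin and calreticulin, measured 57.4, 59.2 and 59.6 FPKM in controls and 92.0, 84.4 and 80.9 in ACD (log2 fold change 0.54, SE 0.07, adjusted p = 0.0127). Pdia4 (ERp72) measured 17.0, 15.4 and 16.8 in controls and 29.0, 22.6 and 26.0 in ACD (0.65, SE 0.10, adjusted p = 0.0217). Pdia6, which is known to bind BiP and IRE1, measured 26.4, 25.6 and 21.6 in controls and 43.8, 37.8 and 37.5 in ACD (0.69, SE 0.10, adjusted p = 0.0196). P4hb, the founding member PDI, measured 43.6, 43.8 and 48.2 in controls and 54.8, 52.9 and 50.6 in ACD. Its groups did not overlap, but its log2 fold change of 0.22 (95% interval 0.06 to 0.38) did not pass (adjusted p = 0.116). The intervals of Pdia4 (0.41 to 0.88) and Pdia6 (0.45 to 0.93) lay above that of P4hb, and that of Pdia3 (0.38 to 0.70) touched it. The differences between these genes were not tested. Pdia3 lost its call without ACD 2 (adjusted p = 0.0504) and Pdia6 without any 1 ACD library (0.0543 to 0.0643). Pdia4 lost it without ACD 1, ACD 3, control 1 or control 2 (0.0559 to 0.0850).

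The lectin chaperones, which hold glycoproteins during folding, did not pass. Calr, which encodes the soluble calreticulin, measured 78.3, 64.6 and 105 FPKM in controls and 128, 107 and 118 in ACD. The control spread was wide, from 82.6 ± 20.5, and control 3 nearly reached the lowest ACD value. The log2 fold change was 0.54 (95% interval 0.14 to 0.94, adjusted p = 0.126), and without control 3 it was 0.72 with an adjusted p of 0.0424. Canx, which encodes its membrane-bound relative calnexin and had the most reads of the 35 genes (7476 on average), measured 75.4, 82.2 and 86.0 in controls and 99.4, 91.7 and 91.9 in ACD (0.22, 95% interval 0.04 to 0.39, adjusted p = 0.145). Summed over the 15 chaperones and folding enzymes, the level was 490 to 545 FPKM in controls and 697 to 789 in ACD, 1.42 times as high, while the sum over all genes tested was 1.07 times as high.

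**Figure D1:**
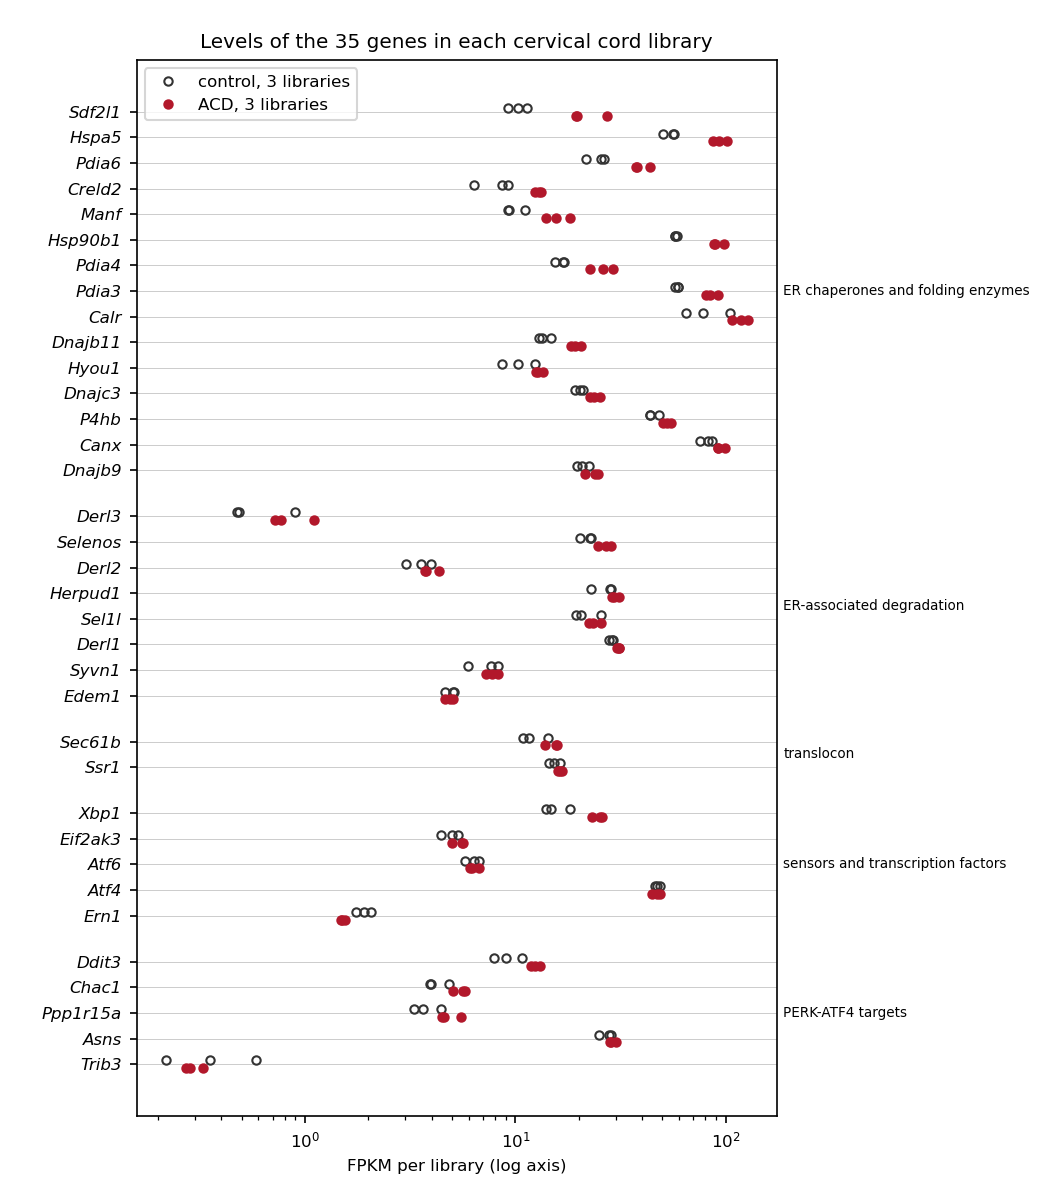
FPKM of each of the 35 genes in the 3 control libraries (open circles) and the 3 ACD libraries (red circles), on a log axis, grouped by role. In 14 of the 15 chaperones and folding enzymes, all except Dnajb9, the red circles lie to the right of the open ones, while the groups of most degradation and sensor genes overlap.

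The degradation branch takes misfolded proteins out of the ER through the ubiquitin ligase HRD1 (gene Syvn1), its scaffold Sel1l, the Derlin channels and their adaptors. None of its 8 genes passed. Their median log2 fold change was 0.15, and that of all genes tested was -0.01. Selenos, a selenoprotein that recruits the ATPase p97, came nearest, at 23.0, 22.6 and 20.2 FPKM in controls and 27.0, 28.5 and 24.7 in ACD (0.28, 95% interval 0.09 to 0.47, adjusted p = 0.101). Its groups did not overlap. Herpud1, which assembles the HRD1 complex and is among the genes most readily induced by ER stress in cultured cells, measured 28.3, 22.8 and 28.3 in controls and 31.1, 29.3 and 28.7 in ACD. The lowest ACD value exceeded the highest control value only slightly, and the change of 0.17 (95% interval -0.06 to 0.40) did not pass (adjusted p = 0.349).

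Edem1, a lectin that hands mannose-trimmed glycoproteins to the ligase and a known target of spliced XBP1, measured 5.13, 5.06 and 4.65 FPKM in controls and 5.03, 4.62 and 4.88 in ACD (log2 fold change -0.03, 95% interval -0.21 to 0.15). This interval excludes a rise of the size seen for Hspa5. Sel1l and Syvn1 had overlapping groups, at 21.9 ± 3.18 and 23.8 ± 1.61 for Sel1l and 7.29 ± 1.21 and 7.74 ± 0.517 for Syvn1. Derl1 went from 28.6 ± 0.671 to 30.8 ± 0.431 with groups that did not overlap (0.11, adjusted p = 0.307). Derl2 went from 3.50 ± 0.476 to 3.95 ± 0.340 (0.17, adjusted p = 0.456). Derl3, a Derlin abundant in secretory cells such as plasma cells, was near the limit of detection with 26.7 reads on average, at 0.619 ± 0.241 and 0.862 ± 0.207 (0.45, 95% interval -0.21 to 1.11, adjusted p = 0.397). A change of moderate size was not detectable in Derl3 at this depth.

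The translocon admits nascent chains to the ER. Sec61b, a subunit of its channel, measured 14.2, 11.6 and 10.9 FPKM in controls and 15.6, 15.8 and 13.8 in ACD, with control 1 inside the ACD values (log2 fold change 0.31, 95% interval 0.05 to 0.57, adjusted p = 0.166). It shares 17.4% of its 50-base words with other gene models, so its level is uncertain. Ssr1, a subunit of the associated TRAP complex, went from 15.4 ± 0.853 to 16.3 ± 0.379 (0.09, adjusted p = 0.494). Neither gene passed.

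Among the sensors and transcription factors Xbp1 alone rose. It measured 18.2, 14.8 and 13.9 FPKM in controls and 25.7, 23.1 and 25.4 in ACD, from 15.6 ± 2.26 to 24.7 ± 1.44, a ratio of 1.58 (log2 fold change 0.66, SE 0.11, adjusted p = 0.0246). The ACD values were all above the controls. Xbp1 mRNA is known to be raised by ATF6 and then spliced by IRE1, and a level per gene does not separate spliced from unspliced mRNA. The call was lost without any 1 ACD library, control 2 or control 3, with adjusted p of 0.0507 to 0.0954.

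The genes of the sensors themselves did not pass. Ern1, which encodes IRE1, was the only gene of the 35 with every ACD value below every control value, at 2.05, 1.74 and 1.90 FPKM in controls and 1.49, 1.505 and 1.55 in ACD (-0.31, 95% interval -0.58 to -0.04, adjusted p = 0.176). Atf6 measured 6.38, 5.76 and 6.72 in controls and 6.71, 6.06 and 6.20 in ACD (0.01, adjusted p = 0.958), and its groups overlapped throughout. Eif2ak3, which encodes PERK, went from 4.92 ± 0.448 to 5.40 ± 0.335 (0.14, 95% interval -0.09 to 0.36, adjusted p = 0.449). Atf4 measured 47.1, 48.8 and 46.1 in controls and 48.8, 44.8 and 47.2 in ACD (-0.01, 95% interval -0.16 to 0.13, adjusted p = 0.931). ATF4 and ATF6 are controlled mainly at translation and by cleavage, which mRNA levels do not show. The estimates of Atf4 and Atf6 changed sign under some alternatives and give no direction.

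None of the PERK-ATF4 genes passed by limma. Ddit3 (CHOP) came nearest, at 10.7, 7.95 and 9.05 FPKM in controls and 12.5, 11.9 and 13.1 in ACD, from 9.23 ± 1.38 to 12.5 ± 0.621 (log2 fold change 0.44, 95% interval 0.18 to 0.71, adjusted p = 0.0735). Its groups did not overlap, and with voom on recovered reads it passed (0.45, adjusted p = 0.0378). Genes on the opposite strand cover 4.7% of its exon length. Chac1, which degrades glutathione and is induced through ATF4, measured 3.94, 4.83 and 3.98 in controls and 5.74, 5.04 and 5.64 in ACD (0.36, 95% interval 0.11 to 0.61, adjusted p = 0.104). The ACD values lay above the controls here too.

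Ppp1r15a (GADD34), the phosphatase subunit that ends the translation block, measured 3.64, 4.43 and 3.30 FPKM in controls and 4.55, 4.47 and 5.53 in ACD (log2 fold change 0.35, 95% interval 0.03 to 0.67, adjusted p = 0.186), with control 2 just under the lowest ACD value. Asns, the asparagine synthetase that ATF4 induces when amino acids are short, measured 27.8, 25.1 and 28.5 in controls and 28.2, 30.2 and 28.4 in ACD. Its interval of -0.07 to 0.26 around 0.10 excludes a change of the size of Hspa5, and 1391 reads lay behind the gene on average. Trib3, a pseudokinase induced by CHOP and ATF4, rested on 13 reads on average, at 0.584, 0.355 and 0.217 in controls and 0.271, 0.325 and 0.283 in ACD (-0.23, 95% interval -1.0 to 0.53). It was too low for a change to be detectable, and its sign turned without control 1.

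Set side by side, 9 of 15 chaperones and folding enzymes rose, and the median of all 15 was 0.54 on the log2 scale. None of the 4 targets Ddit3, Trib3, Chac1 and Asns passed, and their median was 0.23, from -0.23 to 0.44. The lowest, Trib3, rested on 13 reads on average and lowers this median, while Ddit3, Chac1 and Asns were at 0.44, 0.36 and 0.10. With Ppp1r15a added to the 4 targets the median was 0.35, which was 0.26 after TPM scaling and 0.22 with the length and GC trend taken out. The 5 sensors and factors had a median of 0.01, which was -0.09 after TPM scaling, where that of all genes tested went from -0.01 to -0.10. The chaperone median was 0.45 after TPM scaling and 0.48 with the length and GC trend taken out. The difference between the groups of genes was not tested. The interval of Ddit3 overlapped that of Hspa5, that of Chac1 overlapped it slightly (0.61 against 0.59), and that of Asns lay below it.

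**Figure D2:**
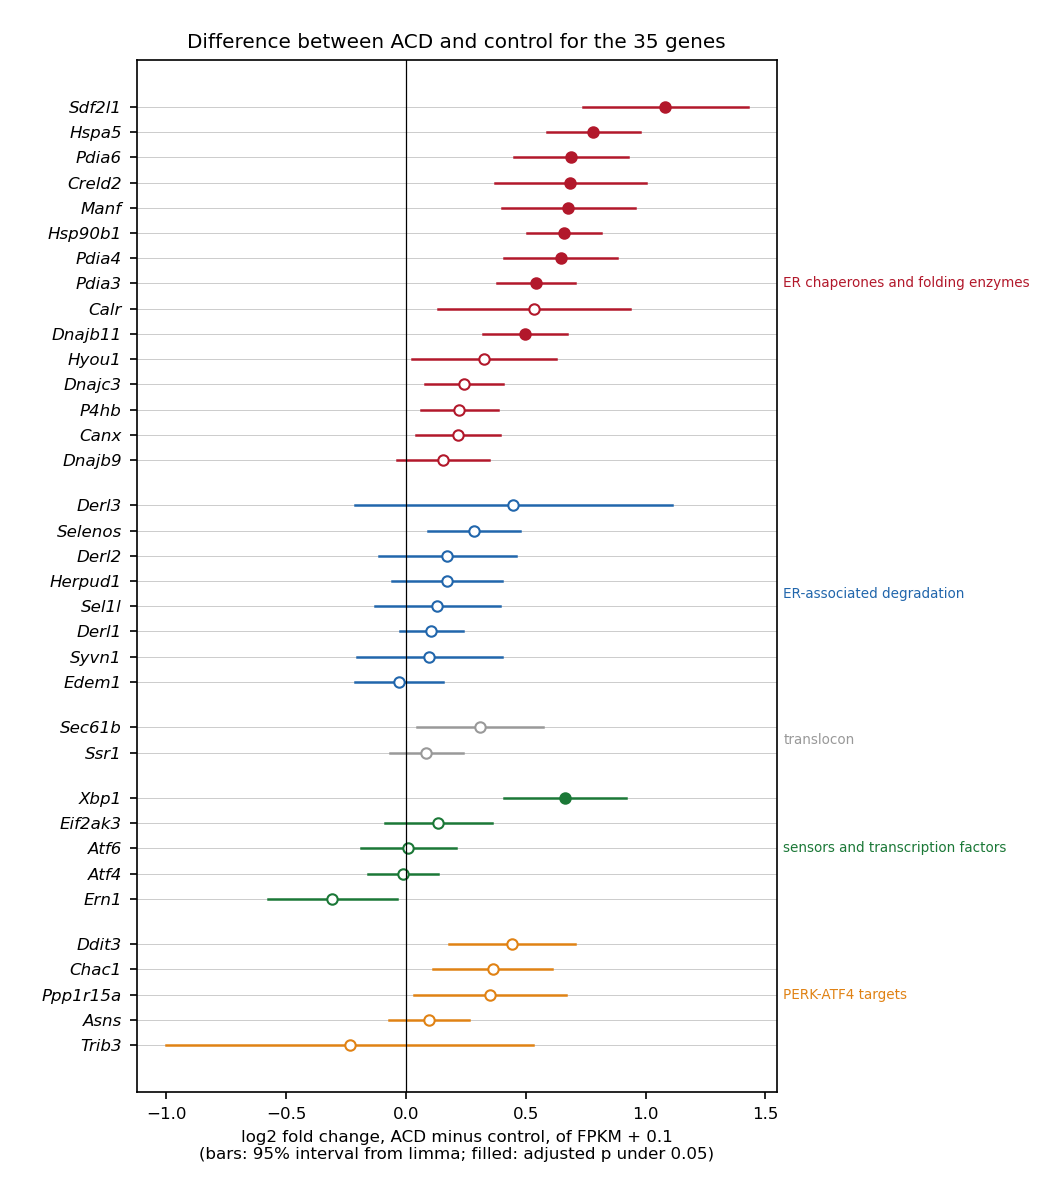
Log2 fold change of each gene, ACD minus control, with its 95% interval from limma. Filled circles passed an adjusted p of 0.05: 9 chaperones and folding enzymes and Xbp1, between 0.50 and 1.08, with none among the degradation, translocon or PERK-ATF4 genes.

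The rise of the chaperones was seen in each ACD library and was uneven between them. The median difference of the 15 genes from the control mean was 0.66, 0.49 and 0.55 on the log2 scale in ACD 1 to 3, and between -0.04 and 0.04 in the controls. For the 4 PERK-ATF4 targets it was 0.25, 0.20 and 0.24 in ACD, and 0.13, -0.07 and -0.05 in controls 1 to 3. With Ppp1r15a added it was 0.27, 0.24 and 0.41 in ACD 1 to 3, and 0.04, -0.02 and -0.09 in controls 1 to 3. ACD 1 held the highest ACD value in all 10 genes that rose and in 23 of the 35, where it was the highest ACD library in 36.5% of all genes tested and in 32.1% of those that rose. Without ACD 1, 4 of the 35 genes passed (Hspa5, Hsp90b1, Sdf2l1 and Pdia3), against 98 higher among all genes tested. Without ACD 2 or ACD 3, 5 and 4 passed, against 98 and 63 higher among all genes tested. Without controls 1 to 3, 6, 7 and 8 passed, against 109, 295 and 314.

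**Figure D3:**
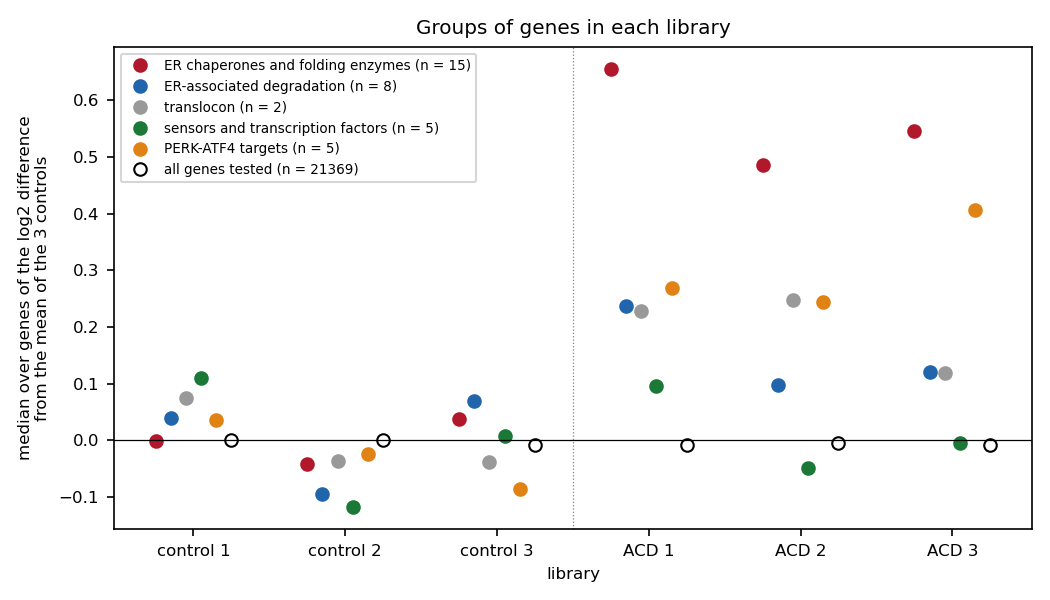
Median over each group of genes of the log2 difference from the mean of the 3 controls, for each library. The chaperones and folding enzymes (red) stand at 0.49 to 0.66 in the ACD libraries, above all genes tested (open circles, near 0). The PERK-ATF4 genes (orange, with Ppp1r15a) lie between, at 0.27, 0.24 and 0.41 in ACD 1 to 3.

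By their pattern over the 6 libraries the 5 genes most like Hspa5, among 13649 averaging 1 FPKM or more, were the ribosomal protein gene Rpl14 (Pearson r = 0.995), the predicted gene Gm13050 (0.994), Usp39 (0.994), Smim10l1 (0.992) and Tspan31 (0.991). These values describe 6 libraries that fall into 2 groups, so any gene that differs between the groups scores high. Among the 35 themselves Pdia4 ranked 10th (0.989), Hsp90b1 15th (0.986), Dnajb11 30th (0.981) and Pdia3 44th (0.978). Ern1 was at -0.85.

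Other genes of the secretory pathway were examined in 6 lists. Of 211 tested genes outside the 35, 9 rose and 1 fell, where 1.81% of all genes rose. The estimate was above 0 in 167 of the 211, against 48.6% of all genes and 8506 of 15359 protein-coding genes. At an unadjusted p under 0.05, 60 of the 211 were higher and 5 lower. Of all genes 10.5% were higher, and of 15359 protein-coding genes 1922. The 3 ACD values lay above the 3 control values in 70 of the 211, against 13.1% of all genes. Among protein-coding genes they did so in 2494 of 15359. With voom 19 rose and 2 fell, where 3.28% of all genes rose. The median log2 fold change of the 211 was 0.12, which was 0.02 after TPM scaling and 0.05 with the length and GC trend taken out. By limma 4 of 39 rose for translocation and glycosylation, 2 of 30 for degradation, 1 of 47 for folding enzymes and 1 of 38 for PERK-ATF4 targets. For ER to Golgi transport 1 was higher and 1 lower of 32. None of 25 further sensors and regulators passed by limma or voom, with 6 higher and 1 lower at an unadjusted p under 0.05. By limma the degradation, folding, transport and PERK-ATF4 lists thus hold only 1 or 2 risen genes each. At an unadjusted p under 0.05, 8 of 30, 11 of 47, 9 of 32 and 11 of 38 of their genes were higher. In the same order 0, 1, 2 and 1 were lower, where 10.5% of all genes were higher. With voom 4, 4, 2 and 3 rose, where 3.28% of all genes did.

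The translocation genes that rose were Krtcap2 and Rpn1, subunits of the oligosaccharyltransferase, Ssr2, a TRAP subunit, and Srprb, a subunit of the receptor for the signal recognition particle. Krtcap2 measured 17.1, 15.3 and 15.2 FPKM in controls and 24.4, 22.7 and 21.2 in ACD (0.52, adjusted p = 0.0216). Ssr2 measured 24.5, 26.7 and 22.1 in controls and 32.3, 34.5 and 33.1 in ACD (0.45, adjusted p = 0.0324). Srprb rose by 0.38 (adjusted p = 0.0271) and Rpn1 by 0.31 (adjusted p = 0.0381). The groups of all 4 did not overlap. Krtcap2, Ssr2 and Srprb share 12.5%, 11% and 19.9% of their words with other gene models.

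In the other lists Stt3b, a catalytic subunit of the same transferase that also serves degradation, rose by 0.26 (adjusted p = 0.0491), and Vcp, the ATPase p97 that pulls proteins from the ER, by 0.34 (adjusted p = 0.0488). Vcp shares 43.6% of its words with other gene models and carries the element TGACGTGG in the window upstream, as do 111 tested genes, of which 2 rose. Erp29, a folding factor of the ER, rose by 0.37 (adjusted p = 0.0304, 24.3% of words shared). Arfgap3, which acts in return transport to the ER, rose by 0.42 (adjusted p = 0.0469), and the COPII coat gene Sec24a fell by 0.54 on the log2 scale (adjusted p = 0.0339). Atf5, a factor translated under eIF2α phosphorylation like ATF4, measured 11.8, 11.2 and 10.8 FPKM in controls and 14.8, 17.6 and 15.7 in ACD (0.51, adjusted p = 0.0246). After TPM scaling 3 of the 211 genes passed, and with 1 library left out between 0 and 11.

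**Figure D4:**
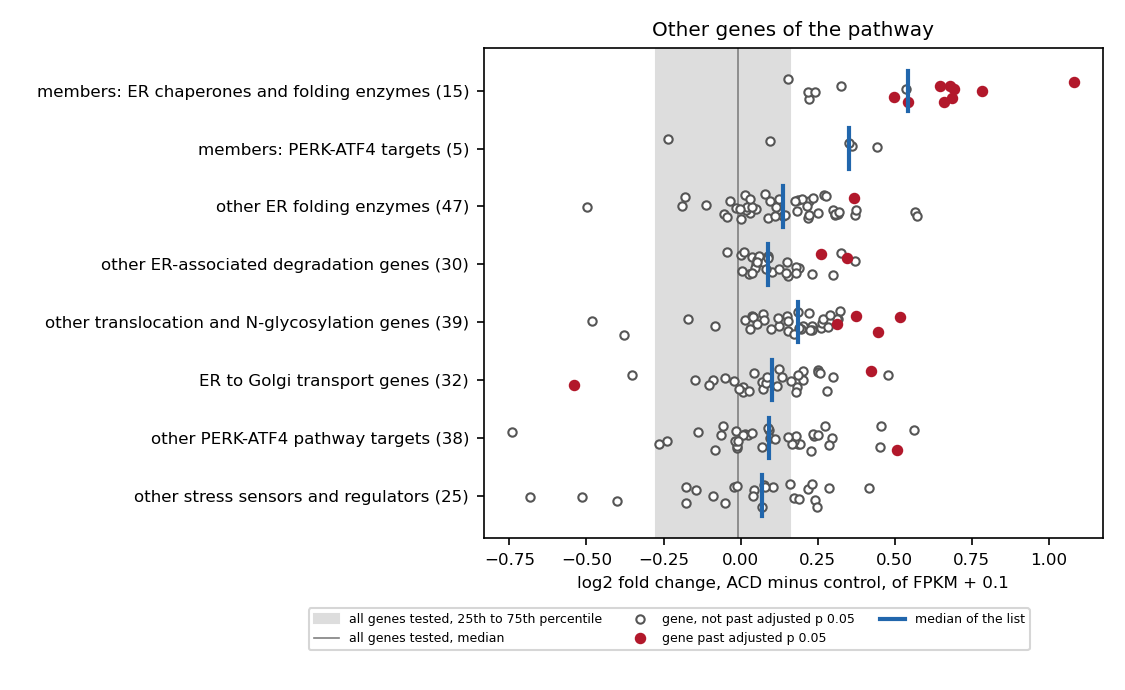
Log2 fold change of single genes in 2 groups of the 35 genes and in 6 lists of other pathway genes, with the number tested in brackets. Red points passed an adjusted p of 0.05, blue bars are list medians, and the grey band spans the 25th to 75th percentile of all genes tested, -0.28 to 0.16.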

How the data were processed

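The authors deposited 1 table per mouse of FPKM, without counts, as the values themselves show: 96.9% of values above 0 were whole reads, within 0.05, after multiplication by the GENCODE M21 exon length and a denominator per library. Median-of-ratios factors of the deposited FPKM were 1 in each library, so scaling by them left every value as it was. Among tools the submitters' processing notes list DESeq2 1.16.1, featureCounts 1.5.0-p3 and HISAT2 2.0.5, and as build mm10, without roles. The kit, the strand setting and the release of the annotation: not given in the sources used here.

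Genes were tested with limma 3.58.1 in R 4.3.3 (trend and robust settings) on log2(FPKM + 0.1), which understates the change of low genes, for the 21369 genes that averaged 0.1 FPKM or more. The two-sided p-values were adjusted over all of these (Benjamini-Hochberg, threshold 0.05). The fit was also run on simulated counts with the same spread setting for every gene, which does not measure its error rate in these libraries. Symbols were matched for 54409 identifiers. Ddit3 has a second, partial model listed at 0, which was not used. Shared words are 50-base stretches of a gene's transcripts found in transcripts of another gene. Alternatives were pseudocounts of 1 and 0.01, no filter, a mean of at least 1 FPKM, TPM and median-of-ratios scaling, removal of a trend on length and GC content, voom on recovered reads, no robust setting, a replicate block and leaving out each library. All 35 genes are named. From each other list up to 4 passing genes with the smallest p are named, otherwise the 1 with the smallest p, Ddrgk1 for the sensors (adjusted p = 0.101). The 35 genes and the lists were chosen with earlier results of these data known. Each library was taken as 1 mouse, as the labels call them biological replicates. A planned count of proteins with an ER retention signal was not run, since no protein table was used.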

Additional observations from a re-analysis of the deposited data

How the results depend on the processing

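Of all genes tested 927 passed, 41.6% of them higher in ACD; this share was 22.8% after TPM scaling and 53.1% among genes averaging 1 FPKM or more. The total was 556 without a filter, 1690 with voom, 181 with the replicate block, 207 with the block and the trend on length and GC content taken out, and 180 to 627 with 1 library left out. Of the 35 genes 10 passed, 5 with the block (0.402% of all genes rose there), 5 with the block and the trend removed (110 of all genes rose there), and 4 to 8 with 1 library left out (63 to 314 of all genes rose). In both block settings the 5 were Hspa5, Hsp90b1, Pdia4, Pdia6 and Manf. Sdf2l1, Pdia3, Dnajb11, Creld2 and Xbp1 lost their calls in both, with adjusted p of 0.0524 to 0.108 by limma. Of the other pathway genes 10 passed, 3 after TPM scaling, 6 with the trend removed, 3 without a filter, 21 with voom, 1 with the block, 0 with the block and the trend removed (33 higher and 7 lower at an unadjusted p under 0.05), and 0 to 11 with 1 library left out. Same-numbered libraries had deviations correlated at -0.07, 0.08 and 0.05, and differently numbered ones at -0.14 to 0.07. The replicate numbers thus showed no clear pairing of the mice, but so few values cannot exclude a weak one. Log2 fold changes that changed sign belonged to genes that did not pass: Edem1 (-0.0724 to 0.0036 with 1 library left out), Syvn1 (-0.0551 with the trend removed, -0.0551 with the block as well, -0.0411 to 0.1956 with 1 library left out), Ssr1 (-0.0107) and Asns (-0.0014) after TPM scaling, Atf6 (-0.0860 after TPM scaling, -0.0497 to 0.0593 with 1 library left out), Atf4 (-0.0405 to 0.0202 with 1 library left out) and Trib3 (-0.5065 to 0.0483 with 1 library left out). The cause of these changes was not tested. Trib3 and Derl3 fall outside the filter at a mean of 1 FPKM and are limited by depth.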
